A study of Mus musculus with 144 samples.

Results

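Podocytes of diabetic BTBR ob/ob mice were compared with podocytes of BTBR wild-type (WT) mice at 12 weeks of age, by RNA sequencing of sorted cells. The 16 libraries whose titles name podocytes at 12 weeks were taken from the 144 samples of the series, 8 WT and 8 ob/ob, each with 4 females and 4 males. BTBR ob/ob mice cannot make functional leptin, grow obese and develop diabetes, and the WT mice are of the same strain. Both groups carried the mT/mG reporter in the ROSA26 locus together with a Cre recombinase under a podocyte promoter, so that podocytes turn from Tomato to EGFP, and these reporter alleles are shared by cases and controls. Glomeruli were isolated with magnetic beads and digested with collagenase, and podocytes were sorted as EGFP-positive cells negative for Tomato, CD73, CD45 and DAPI. The labels number the libraries within each group and sex but do not say that each came from its own mouse, so p-values measure the spread between libraries. In the main test that spread was estimated from all 46 podocyte libraries of 6, 12 and 18 weeks. For other ages and other cells, the podocyte libraries of 6 weeks (8 per genotype) and 18 weeks (7 per genotype) and the 12-week mesangial cell and glomerular endothelial cell (gEC) libraries (8 per genotype each) were used.

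Podocytes are the epithelial cells on the outer side of the glomerular capillary. Their interdigitating foot processes are joined by the slit diaphragm, a membrane of nephrin complexes anchored to an actin cytoskeleton, and the cells deposit much of the glomerular basement membrane on which they rest. They divide rarely, send growth factors such as VEGF to the endothelium, and are lost or effaced in diabetic nephropathy.

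The libraries held 26472114 to 34963137 estimated counts in WT and 25732677 to 37780642 in ob/ob. Levels are given as CPM, counts scaled to a common library size with factors from the trimmed mean of M-values (TMM), and the 3 levels given for a group are its lowest, median and highest library. Log2 fold changes are ob/ob against WT, with their standard error (SE), and adjusted p-values are from the quasi-likelihood test of edgeR, with the Benjamini-Hochberg correction across the 17366 genes tested, a gene being called at an adjusted p under 0.05. Pairs of libraries of a group correlated at r = 0.9725 to 0.9913 over genes. WT male 1 stood apart, with a median r of 0.978 with its own group against 0.987 to 0.989 for the other WT libraries. In these bulk libraries, fewer cells of a type and less RNA per cell cannot be told apart.

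The cells had the markers of their label. The 14 podocyte markers summed to 51710 to 61230 CPM in WT and 54750 to 60880 CPM in ob/ob. Of the markers of other glomerular cells, the 12 for gECs summed to 1707 to 2287 CPM in WT and 1420 to 1660 CPM in ob/ob, nearly all of it Plat and Cldn5, which were both called lower. The other 10 all had positive log2 fold changes, Cdh5 (2.00, adjusted p = 0.00695) and Ehd3 (0.19, adjusted p = 0.048) being called higher, so the median of the 12 was 0.80. The endothelial genes Pecam1, Kdr and Cdh5 reached at most 2.98, 4.80 and 1.75 CPM in any library. The 10 mesangial markers summed to 32.5 to 73.2 CPM in WT and 25.5 to 71.5 CPM in ob/ob. Parietal epithelium markers (8, mostly Cldn1) ranged from 27.5 to 44.1 CPM in WT and from 42.8 to 91.5 CPM in ob/ob, and the 3 renin cell markers from 64.8 to 92.1 and from 106 to 144 CPM, nearly all Aldh1a2, with Ren1 at most 0.483 CPM. The 10 proximal tubule markers summed to 10.2 to 19.1 CPM in WT and 17.8 to 36.5 CPM in ob/ob, mostly Cubn in ob/ob, with Slc34a1 at most 0.863 CPM and Lrp2 at most 1.62 CPM. The 7 smooth muscle markers, mostly Ntrk3, summed to 216 to 315 and 287 to 318 CPM. Of the 6 tested, Mustn1 was called higher (mean 2.52 CPM in WT and 16.65 CPM in ob/ob, log2 fold change 2.71, adjusted p = 3.1e-13) and 5 were not called. The 11 immune markers summed to 3.75 to 11 and 7.19 to 11.6 CPM with Ptprc and C1qa under the count filter. The distal nephron, neutrophil, erythroid and fibroblast lists stayed at or under 8.8 CPM in every library. The part of these markers in the results was not tested.

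At 12 weeks, 3072 of 17366 genes tested (17.7%) were called, 1561 higher in ob/ob (8.99%) and 1511 lower (8.7%). The larger changes were mostly rises, with 424 genes at least 2-fold higher and 112 at least 2-fold lower. The median log2 fold change over all genes tested was 0.00576. Without WT male 1, the library that stood apart, 3719 genes were called. In 713 genes (4.11%) no ob/ob library lay within the range of the WT libraries, 443 of them higher and 270 lower in ob/ob. Leptin itself (Lep), whose gene is defective in ob/ob mice, was read in 1 of the 16 libraries, with 4 counts in an ob/ob library, so its level does not check the genotype here. The leptin receptor Lepr lay at 0.188, 0.440 and 1.46 CPM in WT and 0.226, 0.542 and 1.12 CPM in ob/ob, a log2 fold change of 0.07 ± 0.49, adjusted p = 0.951, which did not pass the test.

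**Figure D1:**
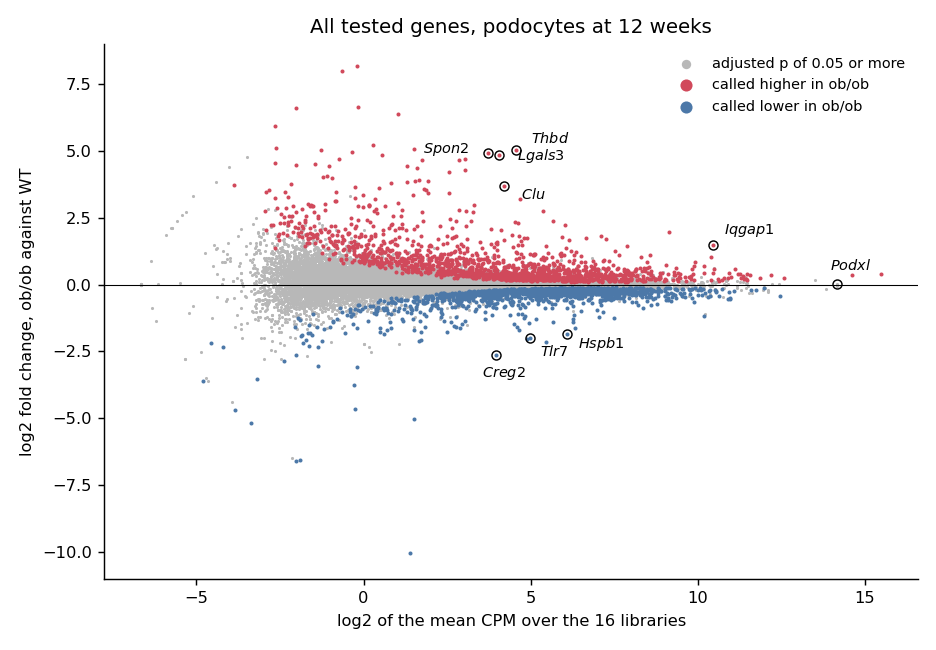
Log2 fold change of ob/ob against WT podocytes at 12 weeks for each of the 17366 genes tested, against the log2 of the mean CPM over the 16 libraries; red genes were called higher (1561), blue genes lower (1511) and grey genes were not called. Genes at 2-fold or more lie mostly above the zero line, and the podocyte gene Podxl at the right end lies close to it.

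Among genes of at least 5 CPM on average in ob/ob, those that rose most are described first. Ranking by fold change with a floor in ob/ob alone favours genes low in WT, so that rule largely set their WT level. Thbd (chr2:148404466-148408188, minus strand) codes for thrombomodulin, the thrombin receptor that starts protein C activation, and Lgals3 (chr14:47367751-47386160, plus strand) for galectin-3, a lectin that binds galactosides on matrix and cell surfaces. Thbd lay at 0.612, 1.15 and 3.92 CPM in WT and 26.9, 48.1 and 61.5 CPM in ob/ob, a log2 fold change of 5.03 ± 0.33, adjusted p = 3.23e-16. Lgals3 lay at 0.680, 0.931 and 1.78 CPM in WT and 17.8, 32.2 and 57.2 CPM in ob/ob, with 4.86 ± 0.29, adjusted p = 2.53e-17. For both genes every ob/ob library lay above every WT library, and the lowest ob/ob library exceeded the highest WT library several times over. Coordinates are those of GENCODE M21 on GRCm38.

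Other genes of this group code for secreted proteins. Spon2 (chr5:33198184-33218455, minus strand), for the matrix protein spondin-2, lay at 0.522, 0.799 and 1.16 CPM in WT and 11.8, 23.1 and 55.4 CPM in ob/ob (log2 fold change 4.93 ± 0.40, adjusted p = 2.51e-13). Clu (chr14:65968483-65981547, plus strand), for clusterin, an extracellular chaperone that also restrains complement, lay at 0.934, 2.84 and 5.39 CPM in WT and 17.9, 33.5 and 56.2 CPM in ob/ob (3.68 ± 0.24, adjusted p = 3.01e-16). Slpi, for a secreted inhibitor of leukocyte proteases, lay at 0.211, 0.469 and 1.21 CPM in WT and 5.85, 16.3 and 28.6 CPM in ob/ob (4.70 ± 0.44, adjusted p = 1.79e-11). In these 3 genes the groups did not overlap. Gdnf, for the glial cell line-derived growth factor that signals through RET, lay at 1.64, 3.26 and 15.8 CPM in WT and 32.6, 42.9 and 82.7 CPM in ob/ob (3.19 ± 0.33, adjusted p = 4.01e-10), again without overlap, and its highest value, in ob/ob female 3, stood far above the other 7.

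The other large rises came from genes at low levels. Fam46b lay at 0, 0.0316 and 0.534 CPM in WT and 1.66, 4.00 and 18.0 CPM in ob/ob, with an adjusted p of 9.46e-09. Tlr5, for the receptor of bacterial flagellin, lay at 0, 0.101 and 0.705 CPM in WT and 2.18, 6.05 and 12.6 CPM in ob/ob (4.66 ± 0.55, adjusted p = 5.94e-09). Tnfsf10, for the death ligand TRAIL, lay at 0.287, 0.755 and 1.36 CPM in WT and 7.09, 11.9 and 51.8 CPM in ob/ob (4.31 ± 0.43, adjusted p = 8.83e-11), with ob/ob female 3 alone at the top. Fam46b and Tlr5 were at 0 in at least 1 WT library, and their fitted fold changes depend on the prior count. Prune2, Parm1, Dnajc6, Dlgap5, Hpgds and Slc6a13 rose by log2 fold changes of 3.44 (Slc6a13, a GABA and taurine transporter) to 4.65 (Prune2), and none of the 6 had groups that overlapped. Hpgds codes for a prostaglandin D synthase and Dlgap5 for a spindle protein.

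**Figure D2:**
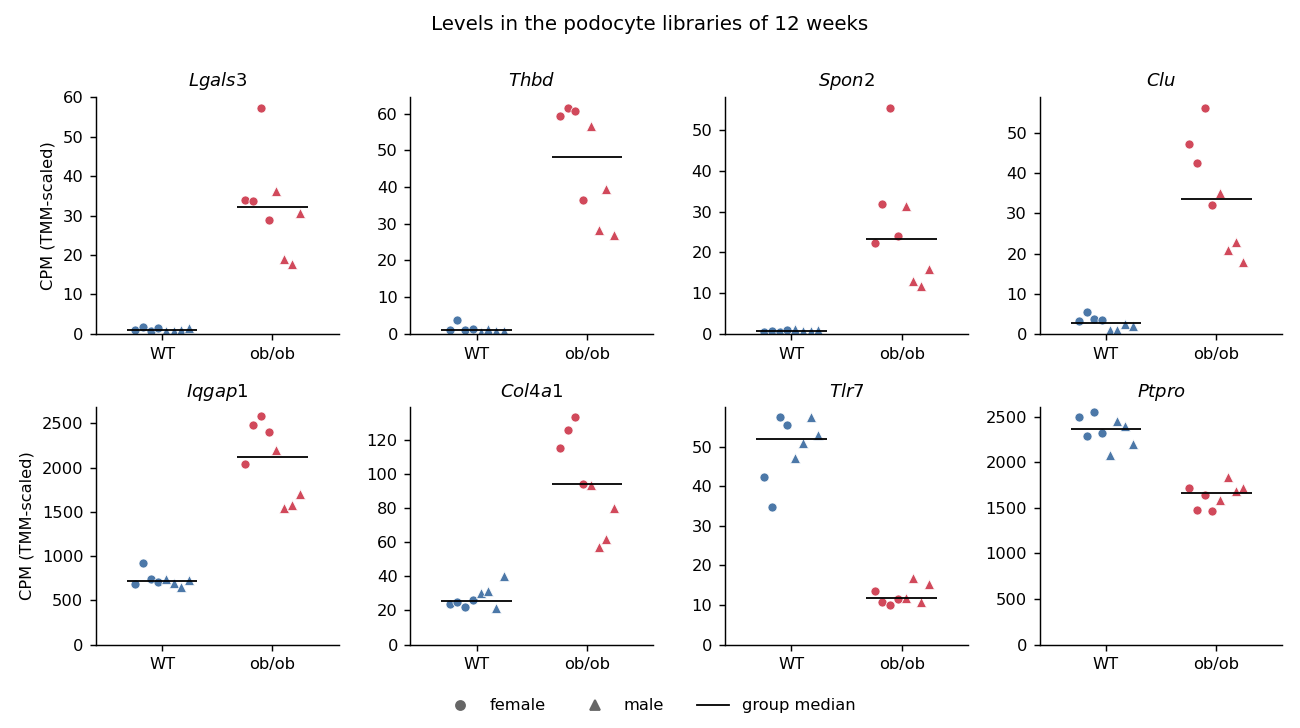
CPM (TMM-scaled) of 8 genes in each of the 16 libraries of podocytes at 12 weeks, WT against ob/ob; circles are females, triangles are males and the line is the median of 8 libraries. In all 8 genes the ob/ob libraries lie wholly above (Lgals3, Thbd, Spon2, Clu, Iqgap1, Col4a1) or wholly below (Tlr7, Ptpro) the WT libraries.

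Falls were named only for genes with a mean of at least 5 CPM in WT, so their starting level was set by that rule. Apart from Gm8226, for which no fold change is given, the named falls were smaller on the log2 scale than these rises. Creg2 (chr1:39618406-39651474, minus strand), for a secreted glycoprotein, lay at 18.0, 28.3 and 34.6 CPM in WT and 3.00, 4.12 and 7.09 CPM in ob/ob (log2 fold change -2.64 ± 0.26, adjusted p = 5.85e-11). Ptpru, for a receptor tyrosine phosphatase of cell contacts, lay at 36.4, 48.0 and 51.8 CPM in WT and 8.02, 9.46 and 21.9 CPM in ob/ob (-2.03 ± 0.16, adjusted p = 2.21e-13). Tlr7 (chrX:167304929-167330558, minus strand), for the endosomal receptor of single-stranded RNA, lay at 34.7, 52.0 and 57.5 CPM in WT and 9.89, 11.7 and 16.8 CPM in ob/ob (-1.99 ± 0.15, adjusted p = 6.28e-14). The groups did not overlap in any of these. Cacna2d2, for a calcium channel subunit, lay at 94.6, 128 and 145 CPM in WT and 27.8, 37.5 and 51.8 CPM in ob/ob (-1.64 ± 0.12, adjusted p = 4.89e-15), again apart.

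The remaining large falls included Lypd1, for a GPI-anchored modulator of nicotinic receptors, at 22.0, 35.0 and 53.1 CPM in WT and 8.05, 11.1 and 19.1 CPM in ob/ob (-1.57 ± 0.18, adjusted p = 2.1e-09). The groups did not overlap in Lypd1, nor in 2610204G07Rik, Fbln7, Adra2c (an alpha 2 adrenergic receptor), Trp53i11, Layn (a hyaluronan receptor) and the histone gene Hist1h4c, which fell by 1.58 to 2.11 on the log2 scale. In Mgat5b, 4.17, 9.19 and 10.7 CPM in WT and 1.11, 2.39 and 4.19 CPM in ob/ob, the groups touched (-1.76 ± 0.26, adjusted p = 8.05e-07). Gm8226, which carries no known function, was listed at 0 in all 8 ob/ob libraries and in 4 WT libraries, and lay between 0.0301 and 18.2 CPM in the other 4, so no fold change is given. Hsp25-ps1, a processed copy of Hspb1 that can share its reads, lay at 14.0, 27.8 and 116 CPM in WT and 4.80, 11.1 and 18.9 CPM in ob/ob (-1.71 ± 0.56, adjusted p = 0.0267), and its call was lost without WT male 3 (adjusted p = 0.182) and without ob/ob male 1.

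Podocyte identity genes differed little between the groups. Of the 14 podocyte markers, 4 were called lower and none higher, with a median log2 fold change of -0.05. Nephrin (Nphs1), the core of the slit diaphragm, lay at 2185, 2428 and 2667 CPM in WT and 2028, 2241 and 2407 CPM in ob/ob (-0.13 ± 0.06, adjusted p = 0.131). These overlapping levels of Nphs1 did not pass the test, nor did those of Wt1, the transcription factor of the podocyte lineage (0.01 ± 0.03, adjusted p = 0.882), Podxl, for the surface sialomucin podocalyxin (0.02 ± 0.04, adjusted p = 0.796), and Synpo, for the actin-binding protein synaptopodin (0.04 ± 0.04, adjusted p = 0.622). With TPM values in place of counts the sign of these last 3 turned. Vegfa (0.08 ± 0.05, adjusted p = 0.269) and the cell cycle inhibitor Cdkn1c (-0.13 ± 0.08, adjusted p = 0.295) also did not pass the test.

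Among 21 tested genes of the slit diaphragm and foot process, 9 were lower in ob/ob (42.9%, beside 8.7% of all genes) and 3 were higher, and the median log2 fold change was -0.13. Ptpro, the receptor tyrosine phosphatase GLEPP1 of foot processes, lay at 2080, 2363 and 2546 CPM in WT and 1465, 1665 and 1834 CPM in ob/ob (-0.52 ± 0.06, adjusted p = 6.2e-09), with no overlap. Plce1, for phospholipase C epsilon, fell from a median of 1321 to 1032 CPM (log2 fold change -0.33 ± 0.05, adjusted p = 2.31e-07) and Kirrel, for the nephrin-binding protein Neph1, from a median of 451 to 387 CPM (log2 fold change -0.25 ± 0.06, adjusted p = 0.00368), both without overlap. Nck2, for an adaptor between nephrin and actin, fell from a median of 160.0 to 141 CPM (log2 fold change -0.19 ± 0.05, adjusted p = 0.00403). The polarity kinase gene Prkci fell from a median of 192 to 169 CPM (log2 fold change -0.17 ± 0.04, adjusted p = 0.00392). The 3 higher genes were Myo1e, for a membrane-bound myosin, from a median of 878 to 1457 CPM (log2 fold change 0.69 ± 0.08, adjusted p = 1.3e-09), Dag1, for the matrix receptor dystroglycan, from a median of 2088 to 2799 CPM (log2 fold change 0.41 ± 0.05, adjusted p = 2.98e-08), and Tjp1, for the junction protein ZO-1, from a median of 1722 to 2057 CPM (log2 fold change 0.26 ± 0.04, adjusted p = 7.03e-06). Myo1e and Dag1 had no overlap between the groups. The lower count of this list was 6 without WT female 3 and 1 in males alone, where fewer genes were called in all (765). Averaged as log2 CPM over the list, libraries ran from 9.16 to 9.27 in both groups. The medians of these averages were 9.23 in WT and 9.2 in ob/ob.

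Of 16 podocyte transcription factors, 6 were lower (37.5%) and 2 higher (12.5%), beside 8.7% and 8.99% of all genes. Their median log2 fold change was 0.00354. Lmx1b, a LIM homeodomain factor of podocyte maintenance, lay at 550.2, 596.7 and 679 CPM in WT and 444, 468 and 540.5 CPM in ob/ob (-0.33 ± 0.05, adjusted p = 3.88e-06) and did not overlap. The count of lower factors went to 3 without ob/ob female 2 or ob/ob female 4 and to 2 without ob/ob male 1, and that of higher factors to 1 without WT female 1, 2 or 3 or ob/ob female 1, while the call of Lmx1b held without each library in turn.

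Of 29 tested genes of the actin cytoskeleton, 6 were higher and 2 lower, beside 8.99% higher and 8.7% lower of all genes, with a median log2 fold change of 0.0376. Iqgap1 (chr7:80711583-80825974, minus strand), for a scaffold that binds actin, nephrin and small GTPase complexes, lay at 652, 719.5 and 927 CPM in WT and 1543, 2119 and 2584 CPM in ob/ob, a log2 fold change of 1.48 ± 0.11, adjusted p = 7.02e-15, the largest rise of those 6. No ob/ob library reached down to WT, whose highest, WT female 2, stood far above the other 7. Actn1, for alpha-actinin-1, rose from a median of 176 to 263 CPM (log2 fold change 0.60 ± 0.06, adjusted p = 1.61e-10), the formin gene Inf2, mutated in familial glomerulosclerosis, from a median of 284 to 402 CPM (log2 fold change 0.52 ± 0.05, adjusted p = 2.41e-10), and Palld, for the actin bundler palladin, from a median of 477 to 624 CPM (log2 fold change 0.42 ± 0.07, adjusted p = 8.9e-06), each without overlap. Actn4, for the podocyte alpha-actinin, rose less, from a median of 1600 to 1762 CPM (log2 fold change 0.16 ± 0.05, adjusted p = 0.0108). Myh9, for non-muscle myosin, at -0.13 ± 0.05 and Pdlim2 at -0.22 ± 0.06 were the 2 lower genes. The lower count was 4 without WT male 1 and 1 without any 1 of WT female 2, WT female 3, WT male 2, WT male 4, ob/ob female 1, ob/ob female 4, ob/ob male 1 and ob/ob male 3.

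Targets of the actin-sensing factors MRTF and SRF were higher in 8 of 27 tested genes (29.6%) and lower in 2 (7.41%), beside 8.99% and 8.7% of all genes. Their median log2 fold change was 0.19. Tpm1, for tropomyosin, rose from a median of 232 to 379.5 CPM (log2 fold change 0.63 ± 0.09, adjusted p = 9.28e-07), Cnn2, for calponin 2, from a median of 35.2 to 52.1 CPM (log2 fold change 0.64 ± 0.10, adjusted p = 2.28e-06), Csrp1, for a LIM protein of actin bundles, from a median of 41.2 to 95.2 CPM (log2 fold change 1.10 ± 0.19, adjusted p = 2.25e-05), and Itga5, for the fibronectin receptor chain, from a median of 11 to 16.9 CPM (log2 fold change 0.64 ± 0.11, adjusted p = 1.16e-05). Of these, Itga5 did not overlap. The contractile genes Acta2 (0.79 ± 0.58, adjusted p = 0.398) and Tagln (0.19 ± 0.24, adjusted p = 0.662) stayed low and did not pass the test, and in males alone both had a negative sign. Without WT male 4, at 6.68 CPM the highest WT library for Acta2 beside 0.374 to 1.21 CPM in the others, the Acta2 log2 fold change was 1.68 and called (adjusted p = 0.0285), as it was in females alone (2.03, adjusted p = 0.014). The 2 lower genes were Actb (-0.20 ± 0.07) and Myh9, and the lower count fell to 0 or 1 when any 1 of WT female 2, 3 or 4, WT male 2, 3 or 4, ob/ob female 1, 2 or 4 or ob/ob male 1, 2 or 3 was left out.

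Targets of YAP and TEAD, the transcription pair of the Hippo pathway, changed in both directions. Of 20 tested, 8 were higher (40%) and 4 lower (20%), beside 8.99% and 8.7% of all genes, with a median of 0.10. Ctgf, for a matricellular growth factor, lay at 582, 790.3 and 1411 CPM in WT and 1078, 1609 and 2919 CPM in ob/ob (1.02 ± 0.22, adjusted p = 0.000732), with overlap. Axl, for the GAS6 receptor kinase, lay at 208, 298 and 324 CPM in WT and 404, 421 and 486 CPM in ob/ob (0.62 ± 0.08, adjusted p = 7.71e-08), without overlap. Arhgef17, for a RhoA exchange factor, and Myof, for myoferlin, rose by 0.24 and 0.22 and also did not overlap. Among the lower genes, F3, for tissue factor, fell from a median of 63.4 to 46.2 CPM (log2 fold change -0.50 ± 0.10, adjusted p = 9.8e-05), and Ptpn14, for a phosphatase that restrains YAP, from a median of 697 to 624 CPM (log2 fold change -0.17 ± 0.04, adjusted p = 0.00429). Amotl2, for the YAP-binding angiomotin-like 2, fell by 0.38 ± 0.12 on the log2 scale, a call that was lost without WT female 1 or WT male 3. The lower count went to 2 without WT female 1.

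RefSeq sequences of the 250 bases before the transcription start (GRCm38.p6) were available for 15 of the 21 YAP/TEAD genes, and 7 of them held the TEAD core motif CATTCC on either strand, as did 12.6% of 32817 mouse promoters. A match is a description of the letters and not a binding site. The promoters of Axl, which rose, and of Ptpn14, which fell, are shown because both held the motif (capitals), 228 and 141 bases before the start. The Axl window is chr7:25788734-25788983, minus strand, and that of Ptpn14 is chr1:189728018-189728267, plus strand.
Axl: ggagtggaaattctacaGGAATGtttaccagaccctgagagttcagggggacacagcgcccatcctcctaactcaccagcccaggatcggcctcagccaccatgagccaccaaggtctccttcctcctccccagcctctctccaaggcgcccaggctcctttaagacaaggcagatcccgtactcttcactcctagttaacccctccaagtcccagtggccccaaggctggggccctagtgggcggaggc
Ptpn14: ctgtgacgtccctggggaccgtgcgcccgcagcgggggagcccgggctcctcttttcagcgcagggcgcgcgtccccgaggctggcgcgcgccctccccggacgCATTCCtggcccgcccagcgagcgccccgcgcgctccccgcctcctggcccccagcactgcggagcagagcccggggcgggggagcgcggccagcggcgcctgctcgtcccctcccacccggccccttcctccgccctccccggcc

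Basement membrane genes rose in 9 of 19 (47.4%, beside 8.99% of all genes), with 3 lower and a median log2 fold change of 0.27. The alpha 1 and alpha 2 chains of collagen IV form the network of embryonic and mesangial matrix, while podocytes make the alpha 3 to alpha 5 network. Col4a1 lay at 21.2, 25.6 and 40.0 CPM in WT and 57.4, 94.0 and 134 CPM in ob/ob (1.77 ± 0.18, adjusted p = 1.87e-10). Its head-to-head neighbour Col4a2 lay at 47.7, 63.0 and 73.6 CPM in WT and 122, 221 and 294 CPM in ob/ob (1.82 ± 0.15, adjusted p = 7.08e-13). Neither gene overlapped between the groups. Col4a3 started much higher, at 5010, 5589 and 6251 CPM in WT and 5349, 6661 and 7382 CPM in ob/ob, and rose by 0.27 ± 0.06, with overlap.

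Sparc, for a collagen-binding matricellular protein, rose from a median of 1009 to 1302 CPM (log2 fold change 0.42 ± 0.08, adjusted p = 4.78e-05), without overlap, and Nid1, for the laminin-collagen linker nidogen-1, from a median of 3.93 to 7.78 CPM (log2 fold change 0.91 ± 0.19, adjusted p = 0.000462). The laminin beta 2 chain gene Lamb2, part of the mature glomerular laminin, lay at 735, 779 and 853 CPM in WT and 581, 612 and 706 CPM in ob/ob (-0.33 ± 0.06, adjusted p = 1.5e-05), and the heparan sulfate proteoglycan gene Agrn fell from a median of 419 to 329 CPM (log2 fold change -0.36 ± 0.06, adjusted p = 4.43e-05), both without overlap. Col18a1 fell from a median of 1658 to 1344 CPM (log2 fold change -0.23 ± 0.07, adjusted p = 0.0174). Averaged as log2 CPM over the list, the lowest, median and highest library were 6.36, 6.44 and 6.59 in WT and 6.68, 6.82 and 6.97 in ob/ob, so no ob/ob library reached the WT range.

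Of 22 interstitial matrix genes, 7 were higher (31.8%) and 2 lower (9.09%), beside 8.99% and 8.7% of all genes, with a median of 0.58. Loxl2, for a lysyl oxidase that cross-links collagen IV, lay at 97.7, 110.3 and 120.4 CPM in WT and 195, 268 and 301 CPM in ob/ob (1.25 ± 0.09, adjusted p = 3.04e-15), without overlap. Col1a2, for a collagen I chain, fell from a median of 187 to 88.6 CPM (log2 fold change -1.03 ± 0.12, adjusted p = 2.14e-09), also without overlap, and Spon1, for spondin-1, fell from a median of 100.3 to 76.8 CPM (log2 fold change -0.46 ± 0.11, adjusted p = 0.00104). Col12a1 rose from a median of 0.447 to 5.08 CPM (log2 fold change 3.34 ± 0.53, adjusted p = 5.15e-06), but the lowest ob/ob library lay below all WT libraries. Among 16 matrix proteases and inhibitors, 5 were higher (31.2%) and 3 lower (18.8%). Mmp14, for a membrane-bound collagenase, fell from a median of 5.19 to 2.41 CPM (log2 fold change -1.16 ± 0.19, adjusted p = 1.19e-05), and Mmp2, for gelatinase A, rose from a median of 2.62 to 9.02 CPM (log2 fold change 1.81 ± 0.27, adjusted p = 8.61e-07). Timp3, for the matrix-bound protease inhibitor, rose from a median of 2608 to 3339 CPM (log2 fold change 0.35 ± 0.06, adjusted p = 5.36e-06).

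Integrins and adhesion genes were called in both directions, 3 higher (13%) and 5 lower (21.7%) of 23, beside 8.99% and 8.7% of all genes. Itgb8, for the beta 8 chain that activates latent TGF-beta, fell from a median of 479 to 324 CPM (log2 fold change -0.54 ± 0.06, adjusted p = 1.87e-10), and Bcam, for the laminin receptor Lutheran, from a median of 446 to 274 CPM (log2 fold change -0.61 ± 0.08, adjusted p = 1.92e-07), both without overlap. Ptk2, for focal adhesion kinase, rose from a median of 55.7 to 67.7 CPM (log2 fold change 0.28 ± 0.05, adjusted p = 9.38e-05). The lower count was 3 without WT female 3, WT female 4 or WT male 4 and 2 without ob/ob male 1, and Itgb8 and Bcam kept their calls throughout.

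Secreted growth factors were higher in 5 (22.7%) and lower in 2 (9.09%) of 22, beside 8.99% and 8.7% of all genes, with a median of 0.34. Pdgfa, for the PDGF A chain that acts on mesenchymal cells, lay at 0.122, 0.308 and 0.522 CPM in WT and 2.08, 4.70 and 8.02 CPM in ob/ob (3.82 ± 0.34, adjusted p = 6.05e-12). Bmp7, for an antifibrotic bone morphogenetic protein, rose from a median of 335 to 426 CPM (log2 fold change 0.37 ± 0.05, adjusted p = 1.25e-07), and Angptl7, for a secreted angiopoietin-like protein, fell from a median of 34.4 to 11.4 CPM (log2 fold change -1.47 ± 0.22, adjusted p = 1.16e-06). In these 3 genes the groups did not overlap. Angptl2 fell from a median of 1478 to 1041 CPM (log2 fold change -0.47 ± 0.07, adjusted p = 2.47e-06) and Angpt2, for the TIE2 ligand angiopoietin-2, rose from a median of 0.468 to 1.79 CPM (log2 fold change 1.51 ± 0.34, adjusted p = 0.000847).

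Guidance receptors, which podocytes share with axons, included 7 lower (24.1%) and 2 higher (6.9%) of 29, beside 8.7% and 8.99% of all genes. Epha6, an ephrin receptor, lay at 8.27, 9.68 and 16.8 CPM in WT and 58.4, 65.3 and 99.6 CPM in ob/ob (2.77 ± 0.18, adjusted p = 3.01e-16), the lowest ob/ob library being above the highest WT library. Ephb1 fell from a median of 227 to 156 CPM (log2 fold change -0.51 ± 0.06, adjusted p = 8.01e-10), Robo2, for a SLIT receptor that binds the nephrin complex, from a median of 1249 to 924 CPM (log2 fold change -0.39 ± 0.05, adjusted p = 4.29e-07), Plxnb2, for a semaphorin receptor, from a median of 331 to 264 CPM (log2 fold change -0.33 ± 0.06, adjusted p = 1.57e-05), and Sema3f, for a semaphorin ligand, from a median of 63.1 to 38.5 CPM (log2 fold change -0.72 ± 0.12, adjusted p = 1.76e-05). None of these 4 overlapped.

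Vasoactive and steroid receptors were lower in 4 of 15 (26.7%) and higher in 1 (6.67%), beside 8.7% and 8.99% of all genes. The receptor gene of atrial natriuretic peptide, Npr1, lay at 615, 646 and 702 CPM in WT and 420.0, 435 and 476 CPM in ob/ob (-0.56 ± 0.06, adjusted p = 9.31e-10). The clearance receptor gene Npr3 lay at 1074, 1160 and 1260 CPM in WT and 822, 891 and 969.9 CPM in ob/ob (-0.38 ± 0.06, adjusted p = 9.05e-07). Thra, for a thyroid hormone receptor, fell from a median of 100.4 to 83.2 CPM (log2 fold change -0.29 ± 0.07, adjusted p = 0.00103). None of these overlapped. The 1 higher gene, Ednra, for an endothelin receptor, stayed at or under 1.25 CPM, and without WT female 4 the higher count was 2. Ion channel and calcium genes were higher in 6 (27.3%) and lower in 4 (18.2%) of 22. Kcnma1, for the BK potassium channel, lay at 0, 0.0457 and 0.348 CPM in WT and 0.952, 2.95 and 4.55 CPM in ob/ob, without overlap (adjusted p = 4.22e-09). Trpv4, for a stretch-sensitive cation channel, rose from a median of 4.34 to 11.5 CPM (log2 fold change 1.21 ± 0.17, adjusted p = 2.83e-07), without overlap, and Itpr3, for an IP3 receptor, fell from a median of 590.5 to 434 CPM (log2 fold change -0.42 ± 0.08, adjusted p = 7.95e-05).

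Innate sensing and NF-kB genes were higher in 6 of 14 (42.9%) and lower in 1 (7.14%), with a median of 0.28. Complement and coagulation regulators were higher in 4 (26.7%) and lower in 2 (13.3%) of 15, beside 8.99% and 8.7% of all genes. Tlr4, for the lipopolysaccharide receptor, lay at 0.934, 1.76 and 2.50 CPM in WT and 4.93, 7.37 and 15.4 CPM in ob/ob (2.20 ± 0.20, adjusted p = 5.08e-12), opposite to Tlr7, the 1 lower gene. Cxcl1, for a neutrophil chemokine, lay at 3.68, 7.33 and 9.73 CPM in WT and 10.8, 20.7 and 30.7 CPM in ob/ob (1.51 ± 0.24, adjusted p = 3.37e-06). F2r, for the thrombin receptor PAR1, lay at 161, 205 and 246 CPM in WT and 382, 412 and 486 CPM in ob/ob (1.03 ± 0.08, adjusted p = 2.78e-13). None of these 3 overlapped. Plat, for tissue plasminogen activator, fell from a median of 1797 to 1348 CPM (log2 fold change -0.42 ± 0.05, adjusted p = 2.11e-08), again apart. The lower count of innate genes was 2 without WT female 2, WT female 3, WT male 3, ob/ob female 1 or ob/ob female 4.

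Interferon genes were called at a share near that of all genes (8.99% higher and 8.7% lower), 2 higher and 1 lower of 18, and the higher count fell to 0 without ob/ob female 3, the lower to 0 without WT female 4, ob/ob female 1 or ob/ob female 4. Of 14 MHC class I genes, whose near-identical copies can share reads, 1 was lower, H2-Q7 (-0.26 ± 0.07, adjusted p = 0.00506), and without WT male 1 or ob/ob female 3 the count was 2 or 3. Among 16 endocytic receptors and partners, 3 were higher (18.8%) and 4 lower (25%). Cubn, for the albumin and intrinsic factor receptor cubilin, lay at 1.27, 1.92 and 3.68 CPM in WT and 11.1, 16.5 and 25.0 CPM in ob/ob (2.99 ± 0.24, adjusted p = 1.34e-13), without overlap. Its partner megalin (Lrp2) reached at most 1.62 CPM and did not pass the test (0.32 ± 0.53, adjusted p = 0.753). Mrc2, for a collagen-binding endocytic receptor, fell from a median of 442 to 322 CPM (log2 fold change -0.48 ± 0.05, adjusted p = 4.53e-11), without overlap. Of 24 lysosomal genes, 2 were higher and 2 lower (5 without WT male 1), again near the share of all genes. Ctsh, for cathepsin H, fell from a median of 43.0 to 15.1 CPM (log2 fold change -1.43 ± 0.14, adjusted p = 5.05e-11), without overlap, and Cd63, for a tetraspanin of late endosomes, rose from a median of 23.1 to 39.7 CPM (log2 fold change 0.78 ± 0.09, adjusted p = 1.16e-08), with overlap.

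Genes of glycolysis were higher in 7 of 18 (38.9%) and none was lower, beside 8.99% and 8.7% of all genes, with a median of 0.23. In females alone, where fewer genes were called in all (1718), the higher count was 4. Pfkfb3, for the enzyme that makes the glycolytic activator fructose bisphosphate, lay at 10.5, 15.9 and 21.2 CPM in WT and 26.9, 34.6 and 44.2 CPM in ob/ob (1.14 ± 0.22, adjusted p = 0.000149). Pkm, for pyruvate kinase, lay at 164, 221 and 251 CPM in WT and 269, 293 and 315 CPM in ob/ob (0.45 ± 0.07, adjusted p = 8.17e-06). Tpi1, for triosephosphate isomerase, rose from a median of 32.4 to 42.1 CPM (log2 fold change 0.42 ± 0.07, adjusted p = 1.51e-05). None of these overlapped between the groups. Ldha, for lactate dehydrogenase, rose from a median of 46.5 to 62.9 CPM (log2 fold change 0.36 ± 0.08, adjusted p = 0.00108). The glucose-responsive gene Txnip did not pass the test (0.23 ± 0.12, adjusted p = 0.177).

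Counts from the mitochondrial genome made up 6.88, 7.66 and 9.56% of the total in the lowest, median and highest WT library and 8.88, 10.1 and 11.1% in ob/ob. The means were 7.77% ± 0.797 (SD, n = 8) and 9.84% ± 0.789 (SD, n = 8), a difference of 2.07 percentage points (two-sided exact permutation test over 12870 arrangements, p = 0.000622). The overlap came from WT male 1, at 9.56%, the other WT libraries lying between 6.88 and 8.01%. The rRNAs of this genome made up 1.77 points of the difference (exact permutation test, p = 0.000622) and its mRNAs 0.301 points (exact permutation test, p = 0.00699). The libraries were depleted of rRNA, and 33 of 34 entries of nuclear rRNA tested were also higher, among them Rn18s-rs5 (0.41 ± 0.13, adjusted p = 0.0233), the other 32 being copies with 1 shared value. Whether rRNA depletion bears on the mitochondrial share was not tested. Both mitochondrial rRNAs were higher, mt-Rnr2 at 0.39 ± 0.06 and mt-Rnr1 at 0.37 ± 0.07 on the log2 scale. Of the 13 mRNAs of this genome, which code for respiratory chain subunits, 7 were higher and none lower, mt-Nd6 (0.40 ± 0.08, adjusted p = 0.000353) and mt-Nd5 (0.39 ± 0.09, adjusted p = 0.000675) with the smallest adjusted p. That count was 4 without any 1 of WT female 1, 3 or 4, WT male 2 or 3, ob/ob female 1 or 3 and ob/ob male 2 or 4. Averaged as log2 CPM, these mRNAs ran from 8.5 to 9.25 in WT libraries (median 8.99). In ob/ob they ran from 8.51 to 9.54 (median 9.12), with overlap. Of 25 nuclear genes of oxidative phosphorylation, 1 was higher (4%) and 2 lower (8%), beside 8.99% and 8.7% of all genes. The lower count went to 9 without WT male 1, to 1 without WT female 1, 3 or 4 or ob/ob male 1, and to 0 without ob/ob female 4.

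Cholesterol storage and efflux genes were called in both directions, 2 higher (22.2%) and 4 lower (44.4%) of 9, beside 8.99% and 8.7% of all genes. The higher genes were Soat1 and, with a smaller rise, Nceh1 (log2 fold change 0.167, adjusted p = 0.0234). Soat1, for the enzyme that esterifies cholesterol for storage, lay at 12.1, 13.9 and 16.1 CPM in WT and 26.8, 33.6 and 39.1 CPM in ob/ob (1.24 ± 0.11, adjusted p = 1.15e-12), without overlap. Abca1, for the cholesterol exporter to apolipoprotein A1, lay at 35.3, 61.7 and 94.8 CPM in WT and 27.9, 33.6 and 47.2 CPM in ob/ob (-0.87 ± 0.15, adjusted p = 2.17e-05). Abcg1, for the exporter to HDL, fell from a median of 27.5 to 15.3 CPM (log2 fold change -0.73 ± 0.15, adjusted p = 0.000211), and Mylip, for the ligase that degrades the LDL receptor, from a median of 55.8 to 35.5 CPM (log2 fold change -0.67 ± 0.10, adjusted p = 3.08e-06). Abca1, Abcg1 and Mylip are known targets of the sterol sensor LXR. The higher count was 1 without WT male 1, WT male 3, ob/ob female 1 or ob/ob male 4, and Soat1 was called in each of those fits.

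Of 22 genes of cholesterol synthesis, 4 were higher (18.2%) and 2 lower (9.09%), beside 8.99% and 8.7% of all genes. Dhcr7, for a late reductase of the pathway, fell from a median of 43.5 to 32.8 CPM (log2 fold change -0.37 ± 0.07, adjusted p = 4.91e-05). The lower count was 1 without WT female 1, WT female 3, WT male 4, ob/ob female 2, ob/ob female 4 or ob/ob male 1. Among 22 genes of fatty acid metabolism and PPAR targets, 3 were higher (13.6%) and 1 lower (4.55%), near the shares of all genes. Pdk4, for the kinase that turns off pyruvate dehydrogenase, lay at 39.6, 57.9 and 80.0 CPM in WT and 77.2, 114 and 158 CPM in ob/ob (1.06 ± 0.24, adjusted p = 0.00107), with slight overlap. The lower count was 0 without WT female 2, WT female 4, WT male 2, ob/ob female 2 or ob/ob male 1. In insulin and mTOR signalling, 7 of 29 were higher (24.1%) and 4 lower (13.8%). Deptor, for an mTOR inhibitor, rose from a median of 10.8 to 18.2 CPM (log2 fold change 0.81 ± 0.12, adjusted p = 5.37e-07). Mtor fell from a median of 122 to 99.2 CPM (log2 fold change -0.33 ± 0.06, adjusted p = 1.72e-05).

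Heat shock chaperones, which fold damaged proteins and are induced by the factor HSF1, were lower in 8 of 15 (53.3%, beside 8.7% of all genes) and higher in none, with a median log2 fold change of -0.49. Hspb1 (chr5:135887919-135889563, plus strand), for the small chaperone HSP25 that also caps actin, lay at 37.3, 93.2 and 254 CPM in WT and 21.4, 27.9 and 41.1 CPM in ob/ob (-1.84 ± 0.33, adjusted p = 3.24e-05). Dnajb1, for a co-chaperone of HSP70, lay at 68.7, 156 and 452 CPM in WT and 42.6, 80.9 and 121 CPM in ob/ob (-1.20 ± 0.29, adjusted p = 0.00222). Hspe1 and Hspd1, for the mitochondrial chaperonin pair, fell by 0.74 and 0.49 on the log2 scale, and Hsp90ab1, for a cytosolic HSP90, by 0.50. The groups overlapped in every member called, and WT libraries were widely spread. Averaged as log2 CPM over the list, they ran from 7.34 in WT male 2 to 8.77 in WT male 3 (median 7.95), and ob/ob libraries from 6.98 to 7.68 (median 7.42). Between 6 and 10 members were lower when each library was left out in turn, and none was called in males alone.

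Promoter sequences in RefSeq (GRCm38.p6) covered 10 of the 15 heat shock genes. The paired heat shock element GAANNTTC or its other phase TTCNNGAA was present within 250 bases before the start in 7 of the 10, and in 12.8% of 32817 mouse promoters. For listed genes with several starts the one with most matches was taken, while the 12.8% counts each promoter singly, so the shares are unlike measures. Dnajb1, also lower in ob/ob, held no match. Those of Hspb1 and Hspe1, both lower in ob/ob, are shown with the motif in capitals. Hspb1 (chr5:135887669-135887918, plus strand) held it 110 and 90 bases before the start, and Hspe1 (chr1:55087898-55088147, plus strand), which shares this region with Hspd1 on the other strand, 82, 77 and 72 bases before, in overlapping matches.
Hspb1: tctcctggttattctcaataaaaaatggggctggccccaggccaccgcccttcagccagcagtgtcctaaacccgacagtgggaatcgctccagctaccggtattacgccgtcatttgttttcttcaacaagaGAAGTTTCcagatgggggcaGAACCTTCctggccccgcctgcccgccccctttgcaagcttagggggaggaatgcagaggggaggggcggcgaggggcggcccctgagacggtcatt
Hspe1: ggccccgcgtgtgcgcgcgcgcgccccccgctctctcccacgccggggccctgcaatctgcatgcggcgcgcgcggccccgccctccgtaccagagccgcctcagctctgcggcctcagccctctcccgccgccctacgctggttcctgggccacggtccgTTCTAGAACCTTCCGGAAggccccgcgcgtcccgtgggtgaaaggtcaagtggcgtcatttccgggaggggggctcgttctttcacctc

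Other stress programs moved less evenly. Of 19 genes of the unfolded protein response, 4 were lower (21.1%) and 1 higher (5.26%), beside 8.7% and 8.99% of all genes, with a median of -0.23. Hspa5, for the endoplasmic reticulum chaperone BiP, fell from a median of 931 to 713 CPM (log2 fold change -0.52 ± 0.13, adjusted p = 0.00431) and Calr, for calreticulin, from a median of 1026 to 773 CPM (log2 fold change -0.34 ± 0.09, adjusted p = 0.00711), with overlap. Asns, for asparagine synthetase, an ATF4 target, rose from a median of 6.80 to 9.20 CPM (log2 fold change 0.50 ± 0.12, adjusted p = 0.00108), without overlap. The lower count was 10 without WT male 1, whose average over the list was the lowest of WT, and 7 without ob/ob female 3, the higher count was 2 without WT male 1, and none was lower in males alone. Such log2 CPM averages ran from 6.23 to 6.81 in WT (median 6.61) and from 6.25 to 6.75 in ob/ob (median 6.41), with overlap. Of 23 immediate early genes, 5 were lower (21.7%) and none higher, with a median of -0.25. Jund fell from a median of 685 to 490.0 CPM (log2 fold change -0.46 ± 0.10, adjusted p = 0.000772) and Ier2 from a median of 1205 to 731 CPM (log2 fold change -0.63 ± 0.15, adjusted p = 0.0018), with overlap. Of these genes 3 were lower without WT female 3 or WT female 4, and none in males alone. Their log2 CPM averages ran from 7.91 to 9 in WT (median 8.59) and from 8 to 8.72 in ob/ob (median 8.43), with overlap.

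Antioxidant and NRF2 genes were higher in 5 (18.5%) and lower in 4 (14.8%) of 27, beside 8.99% and 8.7% of all genes. Cat, for catalase, rose without overlap (log2 fold change 0.38, adjusted p = 7.58e-06). Gpx4, for the lipid peroxide reductase, fell from a median of 227 to 177 CPM (log2 fold change -0.31 ± 0.07, adjusted p = 0.000803), and Cyba, for the p22 subunit of NADPH oxidase, from a median of 5.25 to 2.72 CPM (log2 fold change -0.95 ± 0.13, adjusted p = 1.5e-07). Cell cycle genes were higher in 4 of 20 (20%) and lower in none. Ccnb2, for cyclin B2, lay at 0.377, 0.915 and 2.02 CPM in WT and 2.3, 4.35 and 8.84 CPM in ob/ob (2.19 ± 0.42, adjusted p = 9.04e-05), without overlap, and Cdk6 rose from a median of 31.3 to 43.9 CPM (log2 fold change 0.53 ± 0.09, adjusted p = 2.03e-05). Of 15 genes of cell cycle arrest, 2 were higher (13.3%) and none lower. Among them Rb1, for the retinoblastoma protein, rose from a median of 43.4 to 54.7 CPM (log2 fold change 0.31 ± 0.05, adjusted p = 6.75e-06), without overlap.

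Genes listed as markers of podocyte injury had a median log2 fold change of 0.26. Of 16 tested, 7 were higher (43.8%) and none lower, beside 8.99% and 8.7% of all genes. Besides Lgals3, these included Cd44, for the hyaluronan receptor of activated epithelium, at 0.191, 0.710 and 1.06 CPM in WT and 1.37, 2.67 and 3.60 CPM in ob/ob (2.10 ± 0.30, adjusted p = 5.63e-07), and Des, for the intermediate filament desmin, at 4.20, 5.67 and 6.59 CPM in WT and 7.08, 10.2 and 13.0 CPM in ob/ob (0.88 ± 0.15, adjusted p = 1.1e-05). Neither overlapped. Cldn1, for claudin-1 of tight junctions, rose from a median of 20.4 to 46.5 CPM (log2 fold change 1.15 ± 0.16, adjusted p = 5.32e-07), and Nes, for nestin, from a median of 3437 to 4048 CPM (log2 fold change 0.26 ± 0.06, adjusted p = 0.000921). The list averaged 3.38, 3.44 and 3.53 log2 CPM in the lowest, median and highest WT library and 3.9, 4.03 and 4.16 in ob/ob, with no overlap. Its higher count was 4 in females alone, where fewer genes were called in all (1718). Pax8, a parietal epithelium marker as Cldn1 is, lay between 5.26 and 12.7 CPM in WT and between 8.06 and 12.7 CPM in ob/ob. Des is also among the 10 mesangial markers and was the 1 called higher. The 2 called lower were Pdgfrb (-0.914) and Sfrp2 (-1.299), and 7 were not called. The part of mesangial cells in the level of Des was not tested.

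**Figure D3:**
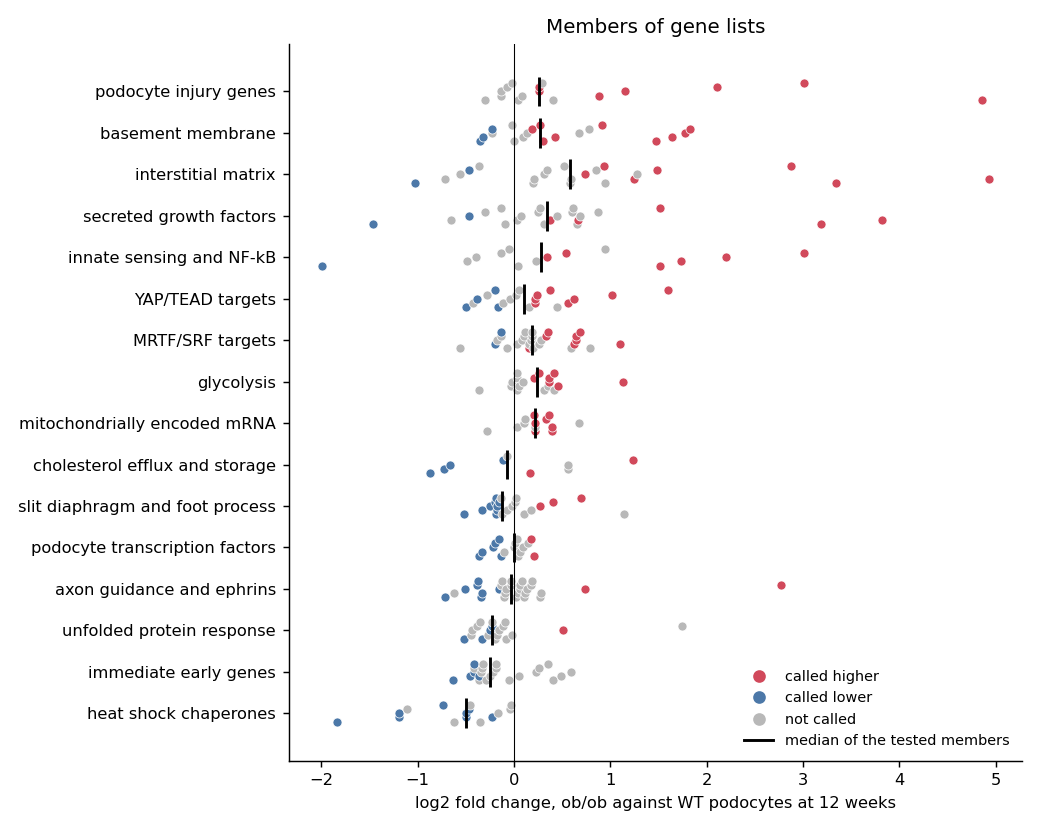
Log2 fold change of ob/ob against WT podocytes at 12 weeks for the tested members of 16 gene lists; each point is a gene, red called higher, blue called lower, grey not called, and the black bar is the median of the members. Injury genes and basement membrane genes spread to the right, with medians of 0.263 and 0.267, and heat shock chaperones to the left, with a median of -0.494.

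The effect was compared between the sexes in the 16 libraries. No gene was called for a difference between males and females (0% of 17366) by edgeR's quasi-likelihood test, 857 had an unadjusted p under 0.05, and DESeq2 called 10 and the fit with a replicate block 1. In that model 1654 genes were called in females and 1029 in males. Thbd had log2 fold changes of 4.85 ± 0.36 in females and 5.29 ± 0.39 in males. Lgals3 had 4.96 ± 0.32 in females and 4.73 ± 0.33 in males. Iqgap1 had 1.62 ± 0.12 in females and 1.32 ± 0.12 in males, and Tlr7 -2.07 ± 0.16 in females and -1.93 ± 0.16 in males. In these genes both sexes moved the same way. For Hspb1 the values were -2.01 ± 0.47 in females and -1.70 ± 0.47 in males, a difference (males minus females) of 0.31 ± 0.65 with an unadjusted p of 0.641.

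Across ages, each with its own WT and ob/ob libraries, 2826 genes were called at 6 weeks and 1962 at 18 weeks, and of the 3072 genes called at 12 weeks, 992 were called at all 3 ages with the same sign and 1259 at 12 weeks alone, a count that is no test of a difference between ages. Lgals3, Thbd, Clu, Iqgap1 and Tlr7 were called at all 3 ages. At 6, 12 and 18 weeks the log2 fold change of Lgals3 was 4.28 ± 0.29, 4.86 ± 0.29 and 4.32 ± 0.34. That of Thbd was 4.19 ± 0.31, 5.03 ± 0.33 and 4.96 ± 0.37, that of Clu 3.89 ± 0.24, 3.68 ± 0.24 and 4.14 ± 0.28 and that of Iqgap1 1.52 ± 0.11, 1.48 ± 0.11 and 1.38 ± 0.11. Tlr7 had -2.20 ± 0.16, -1.99 ± 0.15 and -1.62 ± 0.17. In none of these 5 was a difference called between 12 and 6 or between 12 and 18 weeks, and the difference between 6 and 18 weeks was not tested. Between 12 and 18 weeks the effect differed in no gene by edgeR (0% of 17366), with 1295 at an unadjusted p under 0.05, 9 called by DESeq2 and 1 in the fit with a replicate block.

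The 12-week effect was distinct from that at 6 weeks in 99 genes (0.57%), 25 with a higher and 74 with a lower value at 12 weeks, and 66 of the 99 were called at 12 weeks. The genes described are the 6 with the smallest adjusted p in each direction. Among the higher values, Lipe, for hormone-sensitive lipase, had log2 fold changes of -0.12 ± 0.08, 0.55 ± 0.08 and 0.48 ± 0.08 at the 3 ages, a difference between 12 and 6 weeks of 0.68 ± 0.11 and an adjusted p of 0.000511. Acsl1, for an acyl-CoA synthetase, had -0.23 ± 0.06, 0.23 ± 0.06 and 0.30 ± 0.06, a difference between 12 and 6 weeks of 0.46 ± 0.08 and an adjusted p of 0.00337. Pdk4 had -0.65 ± 0.24, 1.06 ± 0.24 and 0.63 ± 0.27, a difference between 12 and 6 weeks of 1.71 ± 0.34 and an adjusted p of 0.012. In these 3 genes the 6-week values were negative and the later ones positive. Ucp2, for a mitochondrial uncoupling protein, had -0.30 ± 0.08, 0.26 ± 0.08 and 0.33 ± 0.09, a difference between 12 and 6 weeks of 0.57 ± 0.12 and an adjusted p of 0.0159. Hpgds and Trpm3, for a cation channel, rose at every age and by more at 12 weeks, Hpgds with 1.07 ± 0.34, 3.53 ± 0.33 and 4.05 ± 0.36 (a difference between 12 and 6 weeks of 2.46 ± 0.47 and an adjusted p of 0.00629) and Trpm3 with 1.25 ± 0.19, 2.46 ± 0.20 and 2.94 ± 0.23 (a difference between 12 and 6 weeks of 1.21 ± 0.27 and an adjusted p of 0.0335).

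Among the lower values, Scd1, for the desaturase that makes monounsaturated fatty acids, had log2 fold changes of 2.52 ± 0.19, 1.10 ± 0.18 and 0.84 ± 0.20, a difference between 12 and 6 weeks of -1.42 ± 0.25 and an adjusted p of 0.00337. The histone H4 gene Hist1h4c had -0.24 ± 0.15, -1.58 ± 0.15 and -0.51 ± 0.17, a difference between 12 and 6 weeks of -1.35 ± 0.21 and an adjusted p of 0.000511. Hist1h4d had -0.41 ± 0.09, -1.30 ± 0.09 and -0.87 ± 0.10, a difference between 12 and 6 weeks of -0.89 ± 0.13 and an adjusted p of 0.000343, and the linker histone gene Hist1h1e -0.16 ± 0.09, -0.86 ± 0.09 and -0.43 ± 0.10, a difference between 12 and 6 weeks of -0.70 ± 0.13 and an adjusted p of 0.00337. Carhsp1, for an RNA-binding cold shock protein, had 0.08 ± 0.08, -0.62 ± 0.08 and -0.54 ± 0.09, a difference between 12 and 6 weeks of -0.69 ± 0.11 and an adjusted p of 0.000511. Snrnp200, for a spliceosome helicase, had 0.09 ± 0.04, -0.22 ± 0.04 and -0.07 ± 0.04, a difference between 12 and 6 weeks of -0.31 ± 0.06 and an adjusted p of 0.00337.

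**Figure D4:**
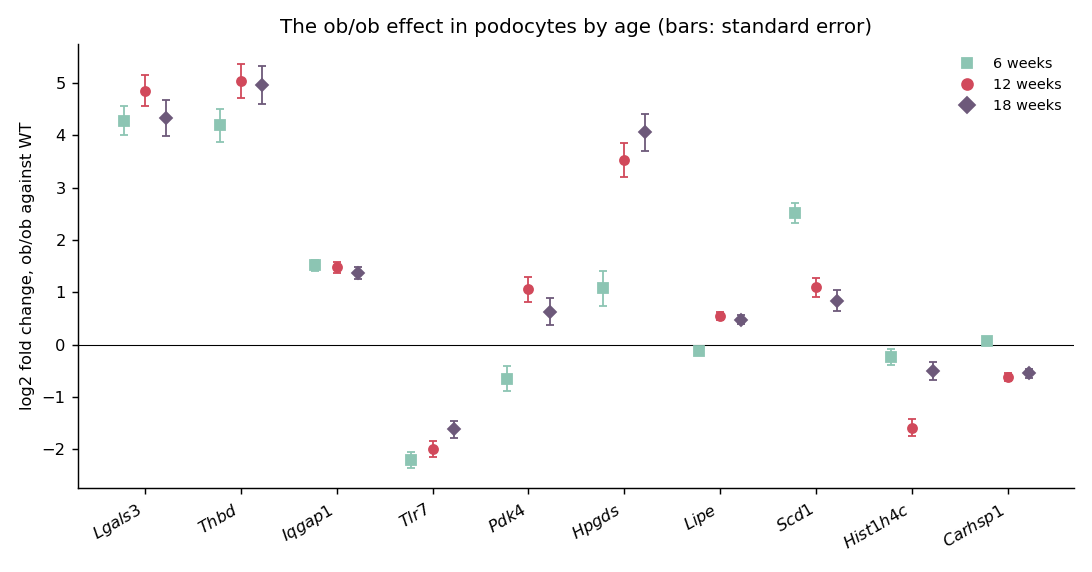
Log2 fold change of ob/ob against WT podocytes, with bars of 1 SE, at 6, 12 and 18 weeks for 10 genes. Lgals3, Thbd, Iqgap1 and Tlr7 have no called difference between 12 weeks and the other ages, Pdk4, Hpgds and Lipe lie higher at 12 than at 6 weeks, and Scd1, Hist1h4c and Carhsp1 lie lower.

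Against the other glomerular cells of the same age, 17031 of the 17366 genes were tested in a model of all 48 libraries. The labels do not say whether libraries of the same sex and number in the 3 cell types came from 1 mouse. The deviations of podocyte libraries from their group means correlated with those of such libraries at r = -0.0996 to 0.55 over genes, WT male 1 being highest at 0.543 with mesangial cells and 0.55 with gECs, and the model treats all 48 as independent. The ob/ob effect in podocytes differed from that in mesangial cells, the contractile cells between the capillaries, in 1659 of 19663 genes (8.44%), 855 higher and 804 lower in podocytes. It differed from that in gECs in 906 (4.61%), 527 higher and 379 lower. Iqgap1 had log2 fold changes of 1.47 ± 0.08 in podocytes, -0.10 ± 0.08 in mesangial cells and 0.07 ± 0.08 in gECs (podocytes minus mesangial cells 1.56 ± 0.11, adjusted p = 3.68e-14, and minus gECs 1.40 ± 0.11, adjusted p = 1.5e-12). Agap1, for an ARF GTPase activator of endosomes, had 1.43 ± 0.07 in podocytes, -0.26 ± 0.07 in mesangial cells and 0.01 ± 0.07 in gECs (minus mesangial cells 1.68 ± 0.10, adjusted p = 3.21e-16, and minus gECs 1.42 ± 0.10, adjusted p = 1.5e-13). Both rises thus differed from those in each of the other cell types.

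Against mesangial cells, the higher effects included Ddah1, for the enzyme that clears the nitric oxide synthase inhibitor ADMA, with 2.22 ± 0.16 in podocytes, -0.48 ± 0.16 in mesangial cells and 1.42 ± 0.17 in gECs (difference 2.70 ± 0.22, adjusted p = 2.49e-12). Mustn1 had 2.70 ± 0.22 in podocytes, -0.87 ± 0.20 in mesangial cells and -0.30 ± 0.24 in gECs (difference 3.57 ± 0.30, adjusted p = 4.3e-12), Soat1 1.23 ± 0.07 in podocytes, 0.04 ± 0.07 in mesangial cells and 0.17 ± 0.07 in gECs (difference 1.19 ± 0.10, adjusted p = 5.3e-12) and Pitpnc1, for a lipid transfer protein, a difference of 1.12 ± 0.09, adjusted p = 2.14e-12. Mustn1 is also among the smooth muscle markers, and the part of smooth muscle cells in its level was not tested. Lower effects included the cholesterol exporter gene Abcg1, with -0.73 ± 0.16 in podocytes, 2.10 ± 0.17 in mesangial cells and -0.01 ± 0.16 in gECs (difference -2.84 ± 0.23, adjusted p = 1.63e-12), and Col18a1, with -0.23 ± 0.15 in podocytes, 2.46 ± 0.16 in mesangial cells and 1.04 ± 0.15 in gECs (difference -2.69 ± 0.21, adjusted p = 1.29e-12). Abcg1 and Col18a1 thus had negative values in podocytes and positive ones in mesangial cells. Npr1 had -0.57 ± 0.07 in podocytes, 0.73 ± 0.07 in mesangial cells and 0.33 ± 0.07 in gECs (difference -1.30 ± 0.10, adjusted p = 9.86e-14). Tmtc1, Dock4 and Mgll differed by -3.60, -1.33 and -1.91.

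Against gECs, the higher effects included Cobll1, with 2.18 ± 0.11 in podocytes, 0.51 ± 0.10 in mesangial cells and -0.20 ± 0.10 in gECs (difference 2.38 ± 0.15, adjusted p = 7.28e-16), and Akap6, for an anchor of protein kinase A, with 2.33 ± 0.23 in podocytes, -0.69 ± 0.25 in mesangial cells and -1.54 ± 0.23 in gECs (difference 3.86 ± 0.33, adjusted p = 9.47e-12). Endou and Hdac7, for a class IIa histone deacetylase, differed by 1.73 and 1.45. Lower effects included Serpine2, for the thrombin inhibitor nexin-1, with 0.43 ± 0.12 in podocytes, 0.77 ± 0.12 in mesangial cells and 2.33 ± 0.12 in gECs (difference -1.90 ± 0.17, adjusted p = 4.54e-11), and Lamb2, with -0.33 ± 0.08 in podocytes, 0.01 ± 0.08 in mesangial cells and 0.57 ± 0.08 in gECs (difference -0.91 ± 0.11, adjusted p = 4.48e-08). Slco2a1, for the prostaglandin transporter, Plcd3, Npr1 and Pde8a differed by -1.62, -1.82, -0.91 and -0.97. Thbd, which endothelium expresses, had 5.05 ± 0.47 in podocytes, 0.24 ± 0.44 in mesangial cells and 0.57 ± 0.37 in gECs (minus mesangial cells 4.81 ± 0.62, adjusted p = 2.28e-07, and minus gECs 4.48 ± 0.58, adjusted p = 3.8e-07). Tlr7 differed from mesangial cells by -3.40 ± 0.53, adjusted p = 9.66e-06 and was not called against gECs (0.03 ± 0.41, adjusted p = 1), and Spon2 was not called against mesangial cells (0.89 ± 0.57, adjusted p = 0.418).

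**Figure D5:**
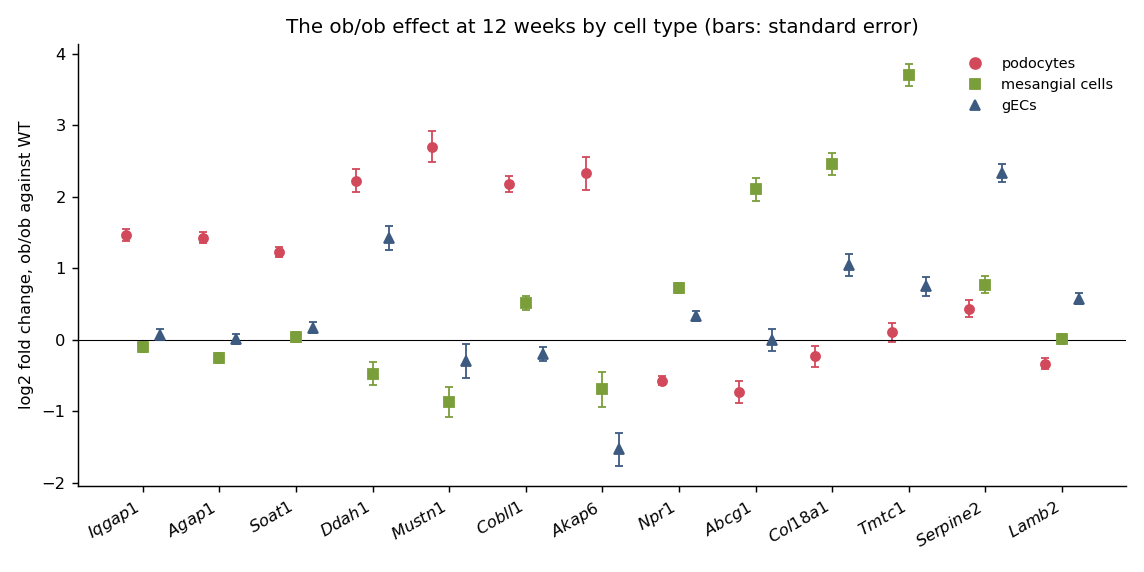
Log2 fold change of ob/ob against WT at 12 weeks, with bars of 1 SE, in podocytes, mesangial cells and gECs for 13 genes. Iqgap1 and Agap1 lie near 0 in the other cells and above 1 in podocytes, and Abcg1 and Col18a1 lie below 0 in podocytes and above 2 in mesangial cells.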

How the data were processed

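RNA of sorted podocytes was extracted and made into stranded, rRNA-depleted libraries, read from one end. Per the labels and the study's methods, the authors checked reads with FastQC 0.11.5, aligned them with Bowtie2 2.3.3.1 and estimated gene levels with RSEM 1.3.0 on mm10. The annotation release is not given in the sources used here. The authors deposited a table per library with expected counts and TPM for 46517 gene entries. Reads of near-identical genes (Hspa1a and Hspa1b, histone genes, Hspb1 and its processed copy) are divided by RSEM in proportion, so their levels are uncertain. Identifiers matched GENCODE M21 in 46005 entries, 197 entries share a symbol, and older symbols (Fam46b, Ctgf, Cyr61) are kept.

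The expected counts were first rounded to integers. Genes were kept by filterByExpr, and libraries scaled by TMM. The main test was edgeR's quasi-likelihood test (edgeR 4.0.16, limma 3.58.1, R 4.3.3) on 46 podocyte libraries of 6, 12 and 18 weeks with 1 group per genotype and age and sex as an additive term, two-sided, with Benjamini-Hochberg adjustment and calls at an adjusted p under 0.05. The difference between sexes was fitted on the 16 libraries of 12 weeks, and differences between cell types on 48 libraries of 12 weeks with sex within cell type. Libraries of the 3 cell types share sex and number, and the labels do not say whether a number marks a mouse, so that fit takes them as independent. The share of mitochondrial counts was compared by an exact permutation test over libraries. The scripts were tested on simulated data. Alternatives were DESeq2 1.42.0, size factors by RLE, no filter, a filter of 1 CPM in 8 libraries, the 12-week libraries alone, no sex term, a replicate block, TPM on a log2 scale with a pseudocount of 0.1 or 1 tested with limma, each sex alone, and each library left out in turn. DESeq2 for the differences between ages, sexes and cell types was added after the data were seen.

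The comparison and the gene lists were chosen with earlier results of these data known, and a list is described by its counts and its median without a test of its own. Genes were named by rule: the 15 largest rises and falls among called genes with all 8 ob/ob libraries beyond the WT median and a mean of at least 5 CPM in the higher group, up to 5 called members per list and direction by adjusted p, a set of genes given whatever their result, and, for each difference, the 6 genes per direction with the smallest adjusted p. A few genes selected by these rules are not reported here. Pax8, Cldn5, Pecam1, Kdr, Cdh5, Ehd3, Pdgfrb, Sfrp2, Ren1, Slc34a1 and Aldh1a2 come from the marker lists. Promoters are RefSeq sequences of GRCm38.p6, and for genes with several starts the one with most motif matches was used.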

Additional observations from a re-analysis of the deposited data

Results flagged for a closer look

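Single libraries stood far from the other 7 of their group in 16 of 118 groups tested, and chance flags about 1 in 20 groups. WT male 1 had 9.56% of its counts from the mitochondrial genome (others 6.88 to 8.01%), 1.96% from its mRNAs (1.38 to 1.63%) and a median correlation with its group of 0.978 (0.987 to 0.989). It was also the lowest WT library for Podxl, at 15800 CPM (17900 to 19400), and for Cdkn1c, at 1490 CPM (1780 to 1960).

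In ob/ob female 3, Tnfsf10 reached 51.8 CPM (others 7.09 to 14), Gdnf 82.7 CPM (32.6 to 49.2) and Tagln 18.8 CPM (5.06 to 9.2). ob/ob male 1 was lowest for Col4a3, at 5350 CPM (6490 to 7380). ob/ob male 2 was lowest for Slc6a13, at 3.48 CPM (6.13 to 9.71). WT female 2 was highest for Thbd, at 3.92 CPM (0.612 to 1.39), and for Iqgap1, at 927 CPM (652 to 740). WT female 4 was lowest for Ptpru, at 36.4 CPM (45.2 to 51.7). WT male 4 was lowest for Mgat5b, at 4.17 CPM (7.17 to 10.6), and highest for Parm1, at 0.927 CPM (0.188 to 0.452), and for Acta2, at 6.68 CPM (0.374 to 1.21). Each of these genes keeps its place in the report with the library included.

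The effect of ob/ob differed between ages or cell types, by tests of the difference itself in edgeR. It differed between 12 and 6 weeks in 99 genes. The log2 fold change at 12 weeks was higher for Lipe (0.677), Acsl1 (0.458), Hpgds (2.46), Pdk4 (1.71), Ucp2 (0.565) and Trpm3 (1.21), and lower for Hist1h4d (-0.892), Carhsp1 (-0.692), Hist1h4c (-1.35), Snrnp200 (-0.31), Scd1 (-1.42) and Hist1h1e (-0.704), adjusted p 0.000343 to 0.0335.

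It differed between podocytes and mesangial cells in 1659 genes. The log2 fold change was higher in podocytes for Agap1 (1.68), Iqgap1 (1.56), Pitpnc1 (1.12), Ddah1 (2.70), Mustn1 (3.57) and Soat1 (1.19), and lower for Tmtc1 (-3.60), Dock4 (-1.33), Npr1 (-1.30), Col18a1 (-2.69), Abcg1 (-2.84) and Mgll (-1.91). Between podocytes and gECs it differed in 906 genes. It was higher in podocytes for Cobll1 (2.38), Agap1 (1.42), Iqgap1 (1.40), Akap6 (3.86), Endou (1.73) and Hdac7 (1.45), and lower for Slco2a1 (-1.62), Serpine2 (-1.90), Plcd3 (-1.82), Npr1 (-0.905), Pde8a (-0.975) and Lamb2 (-0.905).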

How the results depend on the processing

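Called genes numbered 2357 to 3378 under the other size factors, the filters, DESeq2, the 12-week libraries alone, no sex term, the replicate block and TPM, against 3072. Leaving out 1 library gave 2686 (without WT female 3) to 3719 (without WT male 1) calls, 1363 to 1921 higher, 1268 to 1798 lower and 484 to 674 at 2-fold or more. Females alone gave 1718 calls, 873 higher and 845 lower, and males alone 765, 449 higher and 316 lower, 232 of them at 2-fold or more. TPM plus 1 gave 209 genes at 2-fold or more. Of the 215 genes selected by the naming rules and called, RLE size factors kept 215, DESeq2 214, the replicate block 213 and males alone 92, and none changed sign under any alternative. Correlations of deviations between WT and ob/ob libraries of the same sex and number ran from -0.122 to 0.429, with the own number best in 4 of 8. They do not settle whether the numbers pair the libraries, so the block stands here as a value only. With a replicate block 3378 genes were called, the effect at 12 weeks differed from 6 weeks in 498 genes, from 18 weeks in 1 and between sexes in 1, against 99, 0 and 0. DESeq2, added after the data were seen, gave 285, 9 and 10. The differences from mesangial cells (1659) and gECs (906) became 2123 and 1124 with the block and 2181 and 1240 with DESeq2. The cause of these shifts was not tested. Sign changes met 7 genes that were not called with all libraries. They were Wt1 (-0.000941 without a filter, -0.00549 and -0.00548 with TPM plus 0.1 and plus 1, -0.00964 in males, and -0.00544 to 0.0207 without 1 library each), Podxl (-0.02 with TPM, -0.00993 in females, -0.00477 to 0.0329 without 1 library each), Synpo (-0.00571 with TPM), Lrp2 (-0.0118 and -0.012 with TPM), Lepr (-1.08 in males, -0.137 to 0.375 without 1 library each), and the contractile genes Acta2 (-0.305 in males, 0.481 to 1.68 without 1 library each, called without WT male 4 and, at 2.03, in females alone) and Tagln (-0.507 in males, -0.0874 to 0.312 without 1 library each).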

Other observations

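Replication-dependent histone genes, which supply chromatin in S phase and carry no poly(A) tail in dividing cells, were a family chosen after its values were seen. Of 52 tested (symbols starting Hist1 to Hist4), 15 were lower in ob/ob podocytes at 12 weeks and 1 higher, beside 8.7% lower and 8.99% higher of all genes, and 36 were not called. The median log2 fold change was -0.66. Hist1h4d lay at 13.9, 17.7 and 21.9 CPM in WT and 5.54, 7.44 and 8.05 CPM in ob/ob (-1.30 ± 0.09, adjusted p = 9.58e-15, edgeR), the lowest, median and highest of 8 libraries. Hist1h1e lay at 76.3, 88.9 and 97.3 CPM in WT and 39.3, 48.0 and 64.6 CPM in ob/ob (-0.86 ± 0.09, adjusted p = 4.02e-10), and Hist2h2be at 7.86, 9.43 and 12.4 CPM in WT and 3.08, 4.08 and 5.12 CPM in ob/ob (-1.22 ± 0.12, adjusted p = 1.61e-10). The groups did not overlap in these 3 genes. Averaged as log2 CPM over the family, the libraries ran from 1.3 to 1.6 in WT (median 1.47) and from 1.03 to 1.25 in ob/ob (median 1.11), without overlap. The 1 higher gene, Hist2h2aa2, is one of several near-identical copies whose reads can be divided between them. At 6 weeks 7 were lower and 4 higher (median -0.213) and at 18 weeks 12 were lower and none higher (median -0.436), and 5 genes had a lower value at 12 than at 6 weeks by the test of the difference. Between 12 and 15 were lower when each library was left out in turn, and 11 in males alone.

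Ribosomal protein genes were also chosen after their values were seen. Of 74 tested (symbols Rpl or Rps), 40 were lower and none higher (8.7 and 8.99% of all genes), with a median log2 fold change of -0.229. Rps19, of the small subunit, lay at 42.7, 49.6 and 57.1 CPM in WT and 35.5, 38.8 and 41.5 CPM in ob/ob (-0.40 ± 0.07, adjusted p = 2.53e-05, edgeR), without overlap. Rpl37a, of the large subunit, fell from a median of 46.1 to 36.7 CPM (log2 fold change -0.37 ± 0.07, adjusted p = 0.000119), with overlap. The median was 0.0557 at 6 weeks, with 1 lower and 2 higher, and -0.0956 at 18 weeks, with 2 lower, and 3 genes had a lower value at 12 than at 6 weeks by the test of the difference. Averaged as log2 CPM over the family, WT libraries ran from 5.56 in WT male 1 to 6.05 (median 5.9) and ob/ob libraries from 5.59 to 5.79 (median 5.65). In females alone 50 were lower and in males alone none (median -0.132), and a difference between the sexes was called in no gene. Between 30 and 48 were lower when each library was left out, the highest count being without WT male 1.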
